A study of Saccharomyces cerevisiae with 57 samples.

Results

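Divergent intergenic promoter regions are the stretches of yeast DNA between 2 neighbouring protein-coding genes that are transcribed away from each other, with the left gene on the minus strand and the right gene on the plus strand. They were chosen from the sacCer3 annotation alone, with no measured value. Nuclear gaps of 150 to 2000 bp were kept if they lay outside the 20 kb next to each chromosome end and outside the ribosomal DNA (rDNA) repeats of chromosome XII. This gave 1374 divergent regions of 4958 intergenic regions, beside 2557 tandem regions, with both genes on the same strand, and 1027 convergent regions, where the genes run towards each other. The divergent regions had a median length of 503 bp and a median GC content of 36.1%, and together they covered 6.67% of the genome. A non-coding RNA gene lay in 81 of them and a replication origin in 36.

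A divergent region serves as promoter for both of its genes, and it usually holds a stretch of DNA with few nucleosomes. In budding yeast the general regulatory factors Abf1, Rap1 and Reb1 bind such promoters through short DNA motifs and help to keep them open. Rap1 is best known for binding the promoters of ribosomal protein genes and the telomeres. Abf1 also binds replication origins, and Reb1 also takes part in the termination of transcription.

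The libraries came from ChEC-seq, in which micrococcal nuclease (MNase) is fused to a transcription factor (TF) and cuts the DNA near it when calcium is added to permeabilised cells. All ChEC strains were W1588-4C, which is congenic with W303-1A apart from RAD5+. The fusions were ABF1-3FLAG-MNase-kanMX6, RAP1-3FLAG-MNase-kanMX6 and REB1-3FLAG-MNase-kanMX6 at the C terminus of each TF, and a Reb1 fusion at the N terminus was carried on the plasmid pRS413-P_REB1-MNASE-3FLAG-REB1. The strain with that plasmid lacked chromosomal REB1 (reb1Δ::kanMX6). The comparison strain expressed free MNase with a nuclear localisation signal from the REB1 promoter, ura3::P_REB1-3FLAG-MNase-NLS-URA3. Each TF had 3 replicates after 30 s of calcium, and every other condition, free MNase at 30 s included, was 1 library. Of the 57 libraries, 15 were Abf1, 13 Rap1, 17 Reb1 and 11 free MNase ChEC-seq, and 1 was a crosslinked Abf1 immunoprecipitation (X-ChIP-seq). Digestion ran for 10 s to 20 m, with 1 library a fusion without calcium, and shortened linkers were tested for Abf1 and Reb1 at 30 s and 5 m. No label says that replicates came from separate cultures, so p-values measure only the spread between these libraries.

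Cleavage was measured as fragment ends, since each end marks a cut, and a level is given in ends per kb for every 1e6 ends of the library. The 10 libraries at 30 s held 5491962 to 10330700 ends, and a divergent region had a median of 150 to 598.5 ends in them. Pearson correlations of log2 levels between replicates over the 1374 regions were 0.972 to 0.991. The free MNase library at 20 s stands apart, with 95354 ends in all and a median of 2 per divergent region, and no statement below rests on it. Labels carry a run code, which differed between some replicates of each TF. Free MNase shared its code only with Reb1 replicate 1, so the group and the code cannot be fully told apart in comparisons with free MNase.

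The sequences that carry the main findings are shown first, from the RefSeq copy of the R64 (sacCer3) genome. In the first set, the capitals mark a match of the letters searched for as a TF motif, on both strands. For Abf1 these are TCA and ACG with any 6 bases between them, for Rap1 CACCC and ACA with any 2 bases between them, and for Reb1 TTACCCG. Each is read 5′ to 3′ on the strand of the motif, and each comes from a region among those described by name below.
BRX1-MDM20, Abf1, chrXV:186878-186939, plus strand: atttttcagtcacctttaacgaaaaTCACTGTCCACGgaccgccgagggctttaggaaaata
SNF8-HAT1, Abf1, chrXVI:554436-554497, minus strand: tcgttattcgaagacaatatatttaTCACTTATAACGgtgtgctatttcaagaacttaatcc
IOC2-KIN2, Abf1, chrXII:332251-332312, minus strand: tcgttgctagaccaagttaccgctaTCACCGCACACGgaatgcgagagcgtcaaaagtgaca
RPS16B-RPL13A, Rap1, chrIV:308118-308177, minus strand: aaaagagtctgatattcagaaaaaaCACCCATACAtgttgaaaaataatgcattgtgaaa
SKT5-YEL1, Rap1, chrII:107774-107833, minus strand: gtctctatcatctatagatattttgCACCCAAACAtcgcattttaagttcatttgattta
RPB11-SIN3, Reb1, chrXV:316307-316363, minus strand: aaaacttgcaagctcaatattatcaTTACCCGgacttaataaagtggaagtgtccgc
LUC7-YDL086W, Reb1, chrIV:301079-301135, minus strand: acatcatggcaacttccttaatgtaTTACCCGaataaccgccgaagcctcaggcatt
MPH1-AIM21, Reb1, chrIX:360545-360601, plus strand: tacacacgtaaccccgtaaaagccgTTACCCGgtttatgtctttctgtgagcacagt
EPL1-BUD27, Rap1, chrVI:90831-90890, minus strand: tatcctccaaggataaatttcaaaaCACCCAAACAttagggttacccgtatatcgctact

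The last of these also holds the Reb1 letters, in lower case, a few bases after the Rap1 letters. BRX1-MDM20 holds another match of the Abf1 letters in lower case, a few bases before the capitals. IOC2-KIN2 holds another after the capitals, read on the opposite strand. The point of strongest cutting, or summit, was the centre of the 21-bp window with the most ends over the 3 replicates of a TF. The Abf1 summit lay 25 bp from the centre of the capital Abf1 letters in BRX1-MDM20 and 21 bp from it in both SNF8-HAT1 and IOC2-KIN2. The Rap1 summit lay 26 bp from the Rap1 letters in RPS16B-RPL13A, 16 bp in SKT5-YEL1 and 18 bp in EPL1-BUD27. The Reb1 summit lay 17 bp from the Reb1 letters in RPB11-SIN3, and 18 bp from them in both LUC7-YDL086W and MPH1-AIM21.

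A second set is shown because none of the 5 regions most particular to Rap1, by the rule given below, held the Rap1 letters searched for. The plus strand is printed, and the capitals mark the 21-bp window with the most Rap1 ends.
RPS22A-RPL39, chrX:75510-75570: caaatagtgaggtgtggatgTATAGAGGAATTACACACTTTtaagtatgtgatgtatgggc
NTC20-RPS9B, chrII:604293-604353: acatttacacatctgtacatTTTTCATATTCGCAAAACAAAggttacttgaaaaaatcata
FUN19-POP5, chrI:82105-82165: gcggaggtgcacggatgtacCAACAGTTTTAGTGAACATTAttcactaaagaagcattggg

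After 30 s of calcium, TF fusions cut divergent regions more than tandem regions, convergent regions and gene interiors, while the free MNase levels of these classes lay closer together. At 30 s the median level of a divergent region was 114, 128 and 128 ends per kb per 1e6 ends in the Abf1 replicates, 43.9, 43.1 and 39.4 in the Rap1 replicates and 43.9, 58.1 and 66.5 in the Reb1 replicates, against 60.7 with free MNase. The median in divergent regions over that in tandem regions was 1.61 ± 0.0929 with Abf1, 1.35 ± 0.0935 with Rap1 and 1.40 ± 0.0841 with Reb1 (SD, n = 3 each), against 1.08 with free MNase. All 9 TF libraries lay above the free MNase library in this ratio. Over convergent regions the ratios were wider, at 4.63 to 5.12 with Abf1, 3.38 to 4.36 with Rap1 and 2.35 to 3.55 with Reb1, against 1.23 with free MNase. Over gene interiors they were 6.24 to 7.77 with Abf1, 4.60 to 5.13 with Rap1 and 2.76 to 5.20 with Reb1, against 1.01 with free MNase.

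Every Abf1 replicate had a higher ratio of divergent to tandem level than every Rap1 and Reb1 replicate. The difference was 0.261 between Abf1 and Rap1 and 0.206 between Abf1 and Reb1, each with p = 0.1 in a two-sided exact permutation test, the smallest p that 3 against 3 libraries allow (adjusted p = 0.15 over the 3 pairs of TFs). Rap1 minus Reb1 was -0.0546 (exact permutation p = 0.6, adjusted p = 0.6). Within the run code that the 3 TFs shared, the ratio was 1.71 in Abf1 replicate 1, 1.45 in Rap1 replicate 1, and 1.46 and 1.44 in Reb1 replicates 2 and 3. Reb1 replicate 1, which carried the code of free MNase, had a ratio of 1.31. The order of the TFs depended on the use of the median. With the mean over regions the ratio was 1.52 with Abf1, 1.63 with Rap1 and 1.70 with Reb1.

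**Figure D1:**
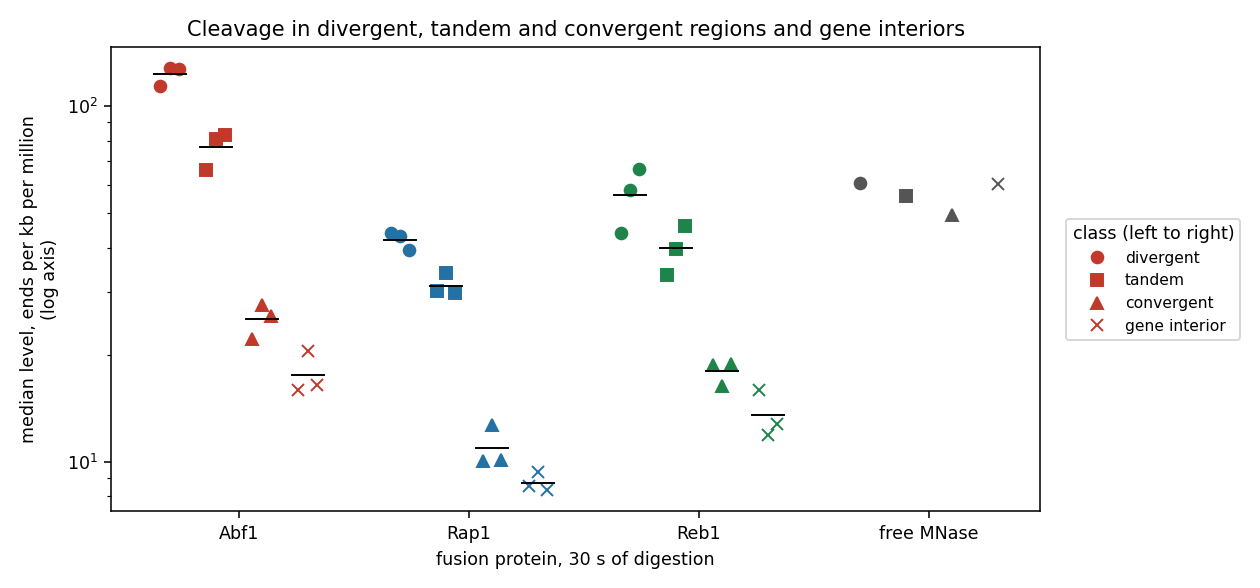
Median level (ends per kb per 1e6 ends, log axis) of divergent, tandem and convergent regions and gene interiors at 30 s, with 1 point a library and a line at the mean of the 3 replicates of each TF. Divergent regions lie highest for each TF (114 to 128 with Abf1), whereas the single free MNase library has 60.7, 56.0, 49.5 and 60.3 in the 4 classes.

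Of all ends at 30 s, divergent regions held 25.4%, 21.7% and 24.5% in Abf1 replicates, 21.1%, 18.5% and 17.8% in Rap1 replicates and 18.1%, 18.1% and 18.0% in Reb1 replicates. The free MNase library had 5.09% of its ends there (95% Wilson interval 5.07% to 5.11%, for counting error only), against 6.67% of the genome. The ends were concentrated in few regions in TF libraries. The 137 divergent regions with the highest level in a library held 36.8% to 44.0% of the summed level with Abf1, 65.6% to 66.0% with Rap1 and 47.1% to 56.6% with Reb1, against 15.9% with free MNase.

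Region by region, Abf1 exceeded free MNase in more divergent regions than either other TF on the scale of all ends. Levels were compared with limma on log2(level + 5), with p-values adjusted over the 4949 intergenic regions tested, and a region was called at an adjusted p under 0.05 and a difference of at least 2-fold. All 1374 divergent regions passed the filter on low values. Abf1 was higher than free MNase in 660 divergent regions (48.0%), where 33.5% of all tested regions were called. It was lower in 102 (7.42%), where 15.2% of all tested regions were called. Rap1 was higher in 288 (20.96%; background 13.7%) and lower in 450 (32.8%; background 45.3%). Reb1 was higher in 442 (32.2%; background 21%) and lower in 291 (21.2%; background 31%). Every divergent region past 2-fold had an adjusted p under 0.05, so that the fold alone set these counts.

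The lower calls depended on the scale. The median log2 difference over all tested regions was 0.27 with Abf1, -0.87 with Rap1 and -0.54 with Reb1 against free MNase, and the median over divergent regions exceeded it by 0.66, 0.36 and 0.44. When the median intergenic region was set equal in every library, the calls were 581 higher and 141 lower with Abf1, 476 higher and 120 lower with Rap1, and 550 higher and 83 lower with Reb1. With identical fragments counted once they were 755 and 34 with Abf1, 448 and 141 with Rap1, and 587 and 54 with Reb1. Scaled to the ends outside rDNA, mitochondrial DNA and chromosome ends they were 333 and 343 with Rap1 and 499 and 191 with Reb1. The share of ends in rDNA was 7.12% to 11.1% with Abf1, 14.5% to 18.2% with Rap1 and 18.7% to 29.5% with Reb1, against 6.70% with free MNase, and mitochondrial DNA held 0.272% to 1.74% of ends in TF libraries, against 16.1% with free MNase. The part of these shares in the lower calls was not tested beyond the scales given.

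Between TFs, Abf1 was higher than Rap1 in 743 divergent regions (54.1%; background 50.5%) and lower in 159 (11.6%; background 7.54%). It was higher than Reb1 in 555 (40.4%; background 35.9%) and lower in 241 (17.5%; background 13.2%). Rap1 was higher than Reb1 in 233 (17.0%; background 12.8%) and lower in 425 (30.9%; background 26.4%). The shares of divergent regions thus lay a few percentage points above the background in both directions. With the median intergenic region set equal, the splits were 363 higher and 318 lower for Abf1 against Rap1, 346 and 371 for Abf1 against Reb1, and 295 and 369 for Rap1 against Reb1. Abf1 against Reb1 also gave 426 higher and 311 lower when scaled to the ends outside rDNA, mitochondrial DNA and chromosome ends. No divergent region called in 1 direction was called in the other under any of these scales, although 53 of the 902 called between Abf1 and Rap1 changed sign with the median set equal.

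A set of divergent regions was cut mainly by 1 TF. Abf1 was called higher than Rap1, Reb1 and free MNase in 340 regions (24.7%; background 18.8%), Rap1 higher than the others in 132 (background 6.04%) and Reb1 in 206 (15.0%; background 11%). In all 340 Abf1 regions, in 131 of the Rap1 regions (9.53% of divergent regions) and in all 206 Reb1 regions the 3 replicates also lay above every replicate of the other TFs. The regions named next were the 5 for each TF with the largest smaller difference to the other TFs. Their contrast chose them, and the values describe them.

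BRX1-MDM20 lies between BRX1, a ribosome assembly factor, and MDM20, a subunit of an N-terminal acetyltransferase (chrXV:186724-187023). It had 669.5, 609 and 767 ends per kb per 1e6 ends in the Abf1 replicates, against 16.2, 13.4 and 9.51 in the Rap1 replicates, 25.8, 13.1 and 20.0 in the Reb1 replicates and 60.0 with free MNase. The Abf1 level was 3.40 ± 0.30 (SE) log2 units above free MNase, and Rap1 and Reb1 were called lower than free MNase (log2 -1.87 and -1.43). The Rap1 and Reb1 levels also lay below free MNase at SNF8-HAT1 (chrXVI:554329-554604), between an endosomal sorting gene and a histone acetyltransferase gene. It had 788 ± 39.4 with Abf1, against 18.2 ± 2.56 with Rap1 and 29.9 ± 2.39 with Reb1 (SD, n = 3 each) and 45.7 with free MNase. IOC2-KIN2 (chrXII:332116-332589), beside a subunit of the Isw1b chromatin remodeller, had 576 ± 97.2, 19.8 ± 7.14 and 22.2 ± 3.50 for Abf1, Rap1 and Reb1, and 66.5 with free MNase. DPP1-ZIP1 (chrIV:1031420-1032435), beside a gene of the synaptonemal complex, and SUM1-TFB1 (chrIV:1084317-1085064), between a meiotic repressor gene and a TFIIH subunit gene, had the highest Abf1 levels of the 5, at 1378 ± 147 and 1128 ± 230 (SD, n = 3 each). All 5 regions held the Abf1 letters, but in DPP1-ZIP1 and SUM1-TFB1 the summit lay 402 and 198 bp from the nearest match.

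The Rap1 regions were led by RPS22A-RPL39 (chrX:75303-75932), which has a ribosomal protein gene on both sides. Its levels were 1793, 1530 and 1455 in the Rap1 replicates, against 73.6, 71.7 and 60.1 in the Abf1 replicates, 44.7, 46.1 and 56.0 in the Reb1 replicates and 55.2 with free MNase. The Rap1 replicates lay far above the rest, and those of Abf1 and Reb1 were near the free MNase library. NTC20-RPS9B (chrII:604108-604507), between a splicing factor gene and a ribosomal protein gene, had 847, 1140.0 and 1162 with Rap1, against 49.97 with free MNase. FUN19-POP5 (chrI:81952-82705), beside a subunit of RNase P, had 1117 ± 109, and YOR365C-SCP1 (chrXV:1025573-1026006), beside a gene for an actin-binding protein, had 1264 ± 226. BIO4-BIO3 (chrXIV:734070-734290), between genes of biotin synthesis, was lower at 368 ± 83.0 with Rap1, against 16.2 ± 3.94 with Abf1 and 16.3 ± 3.68 with Reb1 (SD, n = 3 each). In BIO4-BIO3 the single free MNase library had 55.0.

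The Reb1 regions reached the highest levels of the 15. RPB11-SIN3 (chrXV:316176-316937), between an RNA polymerase II subunit gene and a histone deacetylase complex gene, had 4681, 2779.9 and 2396 in the Reb1 replicates, against 158, 133 and 139 in the Abf1 replicates, 92.8, 59.6 and 55.9 in the Rap1 replicates and 61.1 with free MNase. Reb1 replicate 1 was the highest of the 3 here, and also at PHB1-PEX4 (chrVII:756453-756895), beside the prohibitin gene PHB1, with 4750, 2812 and 2267. MPH1-AIM21 (chrIX:360397-360884), beside a DNA helicase gene, had 2233 ± 232, and LUC7-YDL086W (chrIV:301000-301412), beside a U1 snRNP gene, had 1432 ± 137 (SD, n = 3 each). TRM11-HRP1 (chrXV:86758-87843), beside a tRNA methyltransferase gene and an mRNA 3′ end processing gene, had 1700 ± 361. All 5 held the Reb1 letters, but in PHB1-PEX4 the summit lay 214 bp from them.

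**Figure D2:**
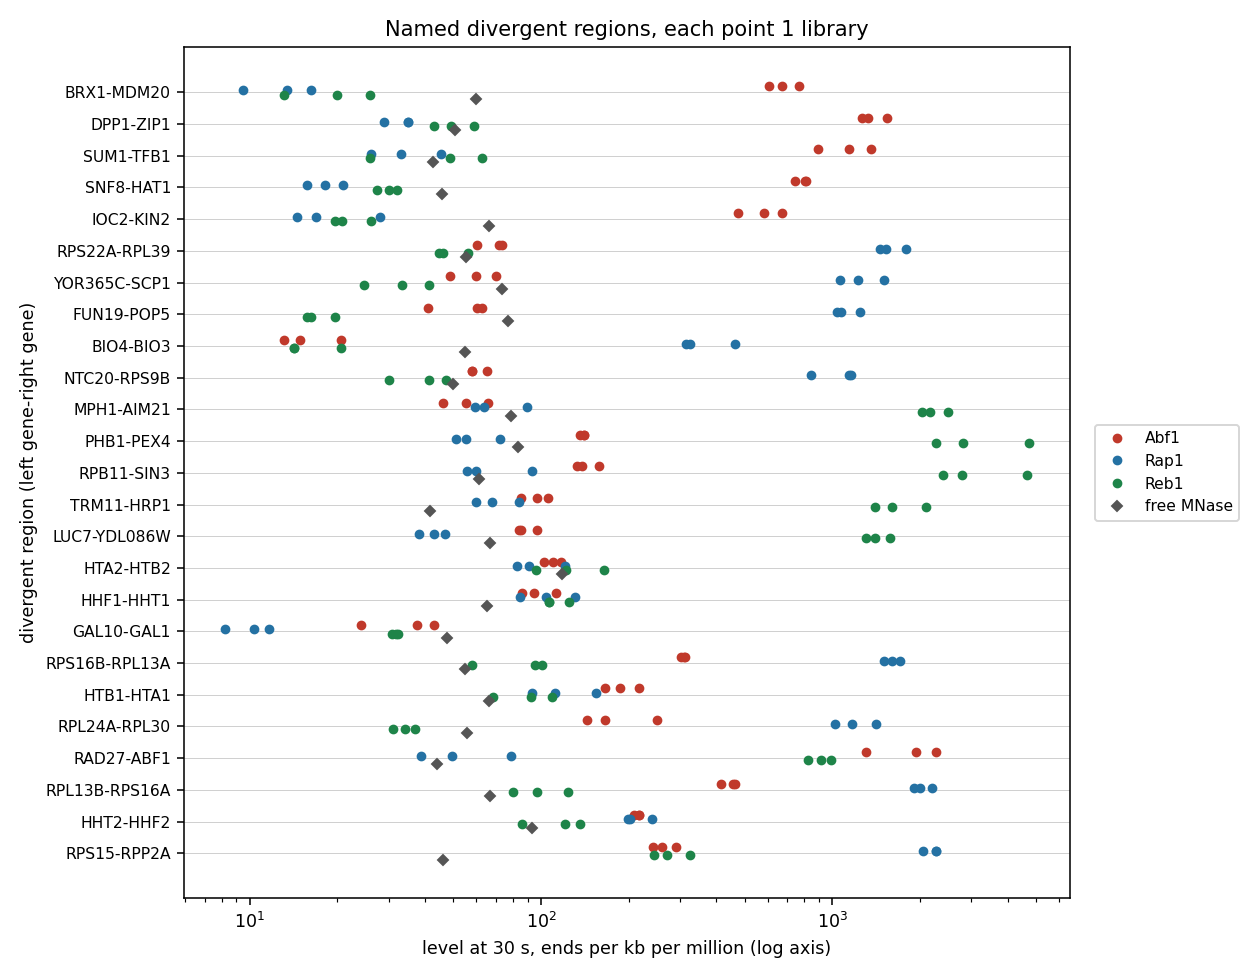
Level at 30 s (ends per kb per 1e6 ends, log axis) in the 15 regions particular to a TF and in the histone, GAL, ribosomal protein and ABF1 regions, with 1 point a library. The TF that each region is particular to stands far to the right in the first 15 rows, and the ribosomal protein pairs have Rap1 levels over 1000, whereas histone regions show little spread.

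Regions with the motif letters of a TF were cut much more by that TF than regions without them, and less so by the other TFs. The Abf1 letters occurred in 395 divergent regions (28.7%), against 21.4% of tandem and 7.98% of convergent regions. The Rap1 letters occurred in 51 (3.71%), against 1.92% and 0.389%, and the Reb1 letters in 215 (15.6%), against 9.97% and 1.56%. These classes differ in length, and per kb there were 0.602, 0.0666 and 0.291 matches of the Abf1, Rap1 and Reb1 letters in divergent regions, against 0.474, 0.0380 and 0.203 in tandem and 0.227, 0.0105 and 0.0422 in convergent regions. In all, 583 divergent regions held any of the letters and 77 held those of at least 2 TFs. A match here is a string of letters and not a shown binding site.

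The median level of regions with the Abf1 letters over those without was 2.51 ± 0.17 on the log2 scale in Abf1 libraries, against 0.51 ± 0.08 in Rap1 and 0.28 ± 0.07 in Reb1 libraries (SD, n = 3 each). For the Rap1 letters it was 4.38 ± 0.14 in Rap1 libraries, against 0.65 ± 0.22 in Abf1 and 0.83 ± 0.15 in Reb1 libraries. For the Reb1 letters it was 3.21 ± 0.23 in Reb1 libraries, against 0.53 ± 0.12 in Abf1 and 0.49 ± 0.17 in Rap1 libraries. With free MNase the 3 differences were 0.04, 0.06 and 0.04. Each TF lay above both others at its own letters in every replicate, with an exact permutation p of 0.1 for each of the 6 pairs, the smallest possible (adjusted p = 0.1 for the Abf1 letters and 0.15 for the Rap1 and Reb1 letters, over 3 pairs of TFs each).

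Calls against free MNase followed the letters. Abf1 was called higher in 332 of 395 divergent regions with the Abf1 letters (84.1%) and in 328 of 979 without them (33.5%). Rap1 was called higher in 45 of 51 regions with its letters (88.2%) and in 243 of 1323 without (18.4%). Reb1 was called higher in 204 of 215 regions with its letters (94.9%) and in 238 of 1159 without (20.5%). Among 791 divergent regions with no letters of any TF, Abf1 was called higher in 234 (29.6%), Rap1 in 122 (15.4%) and Reb1 in 160 (20.2%). These shares lay near the 33.5%, 13.7% and 21% of all tested intergenic regions.

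Among the 137 divergent regions with the highest mean level of each TF, those of Abf1 held the Abf1 letters in 110 (80.3%). Those of Rap1 held the Rap1 letters in 39 (28.5%), and those of Reb1 the Reb1 letters in 83 (60.6%). Of all divergent regions, 28.7%, 3.71% and 15.6% held the Abf1, Rap1 and Reb1 letters. The Rap1 set held the Abf1 letters in 48 regions, more than its own letters, and the Reb1 letters in 20. The Abf1 set held the Reb1 letters in 30 and the Rap1 letters in 9. The Reb1 set held the Abf1 letters in 35 and the Rap1 letters in 5. Each set of 137 is 9.97% of the divergent regions. The sets shared 21 regions (15.3% of each) between Abf1 and Rap1, 32 (23.4%) between Abf1 and Reb1, 15 (10.9%) between Rap1 and Reb1, and 4 among all 3 TFs. With the 137 highest regions of free MNase, Abf1 shared 19, Rap1 12 and Reb1 20. Over all 1374 regions, which differ in length and base composition, the Spearman correlation of mean levels was 0.538 between Abf1 and Rap1, 0.470 between Abf1 and Reb1 and 0.480 between Rap1 and Reb1. It was 0.192 to 0.256 between a TF and free MNase.

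Cleavage within divergent regions was lowest next to the start codons. In the 25 bp nearest a start codon the pooled level was 61.4 to 63.98 ends per kb per 1e6 ends in Abf1 replicates, 52.2 to 55.4 in Rap1 replicates and 48.0 to 51.4 in Reb1 replicates, against 57.2 with free MNase. From 126 to 150 bp it was 367 to 448 with Abf1, 221 to 265 with Rap1 and 344 to 380 with Reb1, against 61.7 with free MNase. The TF libraries thus differed little from free MNase at the edges and by several fold inside. The central 33.3% of the regions held 39.6% ± 0.623 of the ends with Abf1, 43.6% ± 0.556 with Rap1 and 40.4% ± 0.0786 with Reb1 (SD, n = 3 each), against 33.6% with free MNase (Wilson interval 33.4% to 33.8%).

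Rap1 ends were more central than those of the other TFs when ends were pooled. Every Rap1 replicate lay above every replicate of Abf1 and Reb1, with a difference of 3.28 percentage points for Rap1 minus Reb1 and -4.00 for Abf1 minus Rap1 (exact permutation p = 0.1 each, the smallest possible, adjusted p = 0.15). Abf1 minus Reb1 was -0.720 points (exact permutation p = 0.2, adjusted p = 0.2). With the median over regions in place of pooled ends the shares were 41.3% with Abf1, 39.9% with Rap1 and 39.3% with Reb1, so that Rap1 was no longer the highest.

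**Figure D3:**
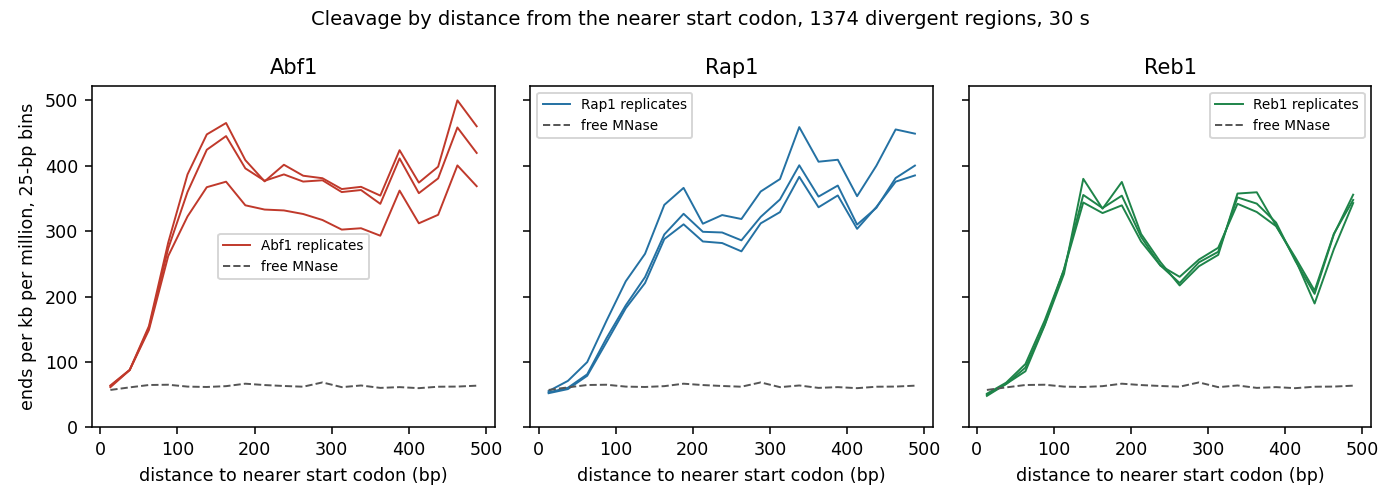
Level (ends per kb per 1e6 ends) in 25-bp bins by distance to the nearer start codon, pooled over 1374 divergent regions at 30 s, with 1 line a replicate and a dashed line for the single free MNase library. Up to the 500 bp plotted the free MNase line stays between 57.2 and 68.7. TF lines start near it and climb within about the first 150 bp.

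Summits repeated between replicates in many but not all regions, and most often in regions with the own letters. The 3 replicates placed the summit within 10 bp of each other in 757 of 1374 regions with Abf1 (55.1%), 582 with Rap1 (42.4%) and 713 with Reb1 (51.9%). In regions with the own letters this was 274 of 395 with Abf1 (69.4%), 40 of 51 with Rap1 (78.4%) and 199 of 215 with Reb1 (92.6%). Without the own letters it was 483 of 979 with Abf1 (49.3%), 542 of 1323 with Rap1 (41.0%) and 514 of 1159 with Reb1 (44.3%). Free MNase libraries at 30, 40 and 60 s, as a comparison, placed the summit within 10 bp in 28 regions (2.04%). The summit lay a median of 133 bp from the nearer start codon with Abf1, 133 bp with Rap1 and 136 bp with Reb1. In regions with the own letters the distances were larger, at 174, 243 and 165 bp, but these letters were more frequent in longer regions. With Abf1 the summit fell in the central 33.3% of the region in 47.3% of regions with its letters and 45.7% without them. These shares were 47.1% and 43.5% with Rap1, and 41.4% and 45.0% with Reb1. The part of region length in the distances was not tested. At Reb1 letters the 21-bp window held a median of 38.4% of all Reb1 ends of the region, against 23.5% of Abf1 ends at Abf1 letters and 24.3% of Rap1 ends at Rap1 letters.

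In regions with exactly 1 match, the summit of the TF lay within 25 bp of its letters in 155 of 318 regions with Abf1 (48.7%), 30 of 48 with Rap1 (62.5%) and 169 of 196 with Reb1 (86.2%). The free MNase summit did so in 31 (9.75%), 2 (4.17%) and 16 (8.16%) of the same regions. Summits of the other TFs lay between. At the Abf1 letters these were 45 (14.2%) with Rap1 and 53 (16.7%) with Reb1. At the Rap1 letters they were 5 (10.4%) with Abf1 and 5 (10.4%) with Reb1. At the Reb1 letters they were 57 (29.1%) with Abf1 and 46 (23.5%) with Rap1. The sharpest regions among the 100 with the highest level were YOL038C-A-PRE6 (chrXV:255022-255336), beside a proteasome gene, and RSM19-DBP6 (chrXIV:695328-695594), beside a mitochondrial ribosomal protein gene, where 74.4% and 67.8% of the Reb1 ends fell in 21 bp. NBL1-RPN10 (chrVIII:498860-499078), beside another proteasome gene, had 53.8% of its Abf1 ends in 21 bp, and CMI8-MRPL28 (chrIV:1385767-1386072) 42.8%. For Rap1 these were YGL007C-A-BRP1 (chrVII:483028-483259) with 42.0% and SKT5-YEL1 (chrII:107407-107931) with 41.3%.

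Around the letters themselves, each TF left a gap flanked by cuts at 30 s, and with Reb1 nearly all cuts were on 1 side. Within 40 bp of the centre of 236 matches, 91.5%, 89.8% and 89.2% of the ends in the Reb1 replicates lay before the letters, that is on the 5′ side of TTACCCG. More ends lay before than after in 230, 230 and 229 of 235 matches with at least 20 ends. The N-terminal Reb1 fusion at 30 s, a single library, had 50.3% before (Wilson interval 50.1% to 50.5%), with more ends before in 113 of 234 matches. The C-terminal fusion with the short linker had 90.5% before (90.4% to 90.6%), and free MNase 53.8% (52.7% to 54.9%). The split thus differed between the fusions at the 2 ends of Reb1, in 1 N-terminal library and with no test. Its level in regions with over those without the Reb1 letters was 3.43 log2 units, against 3.42, 3.24 and 2.96 in the C-terminal replicates.

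Abf1 cut both sides about alike, with 51.9%, 54.6% and 52.8% before its letters at 488 matches. Rap1 had 36.5%, 39.3% and 39.7% before its letters at 54 matches, and thus more after them. Free MNase had 50.8% and 53.9% before at the same matches. The highest single position was 15 or 8 bp before the centre in Reb1 replicates and 11 bp after it in each Rap1 replicate. In the 7 central bases the ends per base were 0.0957 to 0.107 times those of the flanks with Abf1, 0.0357 to 0.0467 with Rap1 and 0.0317 to 0.0824 with Reb1, against 1.09, 1.47 and 1.33 with free MNase. The gap at the Rap1 and Reb1 letters was not particular to their own TF. At the Reb1 letters the value was 0.0443 to 0.0518 in Abf1 and 0.0596 to 0.117 in Rap1 replicates. At the Rap1 letters it was 0.0479 to 0.0862 in Abf1 and 0.0448 to 0.0699 in Reb1 replicates. At the Abf1 letters it was 0.335 to 0.357 in Rap1 and 0.262 to 0.323 in Reb1 replicates. At 20 m the free MNase library also had fewer ends in the centre, at 0.389, 0.0875 and 0.109 times the flanks of the Abf1, Rap1 and Reb1 letters. In the Reb1 libraries the value at the Reb1 letters was 0.816 at 5 m and 1.61 at 20 m. At 20 m the centre there thus held more ends per base than the flanks. The short-linker Reb1 fusion had 0.885 at 5 m and the N-terminal fusion 0.113. At their own letters Abf1 and Rap1 had 0.456 and 0.0902 at 20 m, with 1 library each.

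**Figure D4:**
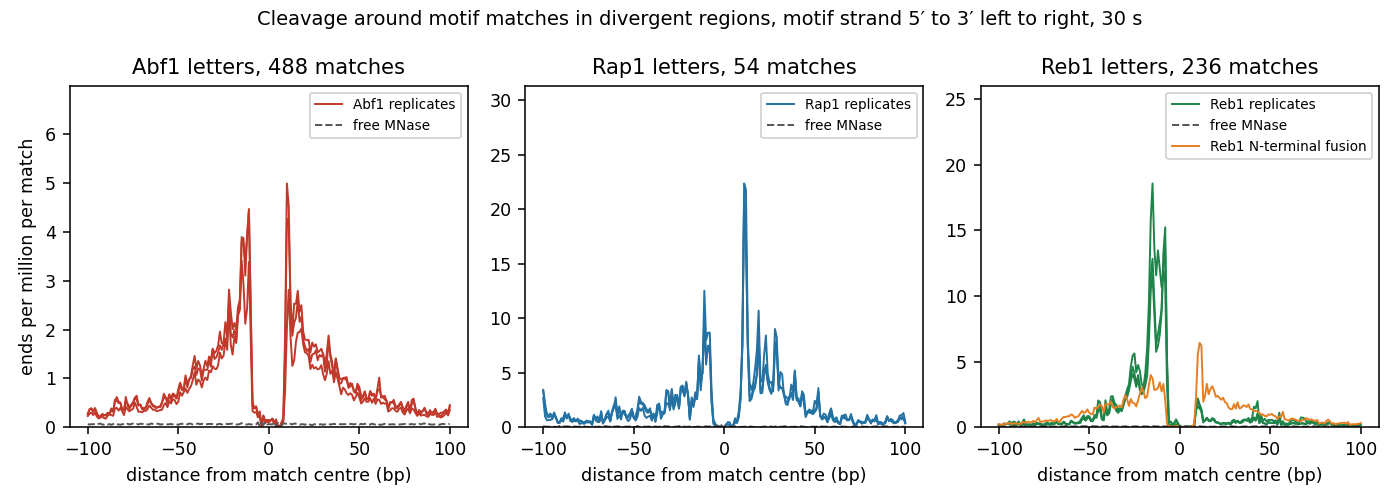
Ends per match, out of each 1e6 ends of the library, by distance from the centre of the Abf1, Rap1 and Reb1 letters in divergent regions at 30 s, 5′ to 3′ on the motif strand from left to right, with 1 line a library. Reb1 replicates peak only before the letters, where 89.2% to 91.5% of the near ends lie, and the N-terminal Reb1 fusion peaks on both sides.

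Over the digestion, regions with the letters of a TF came to hold less of the ends and regions without them more, so that their levels drew together. In Abf1 libraries, regions with the Abf1 letters had a median of 376 ends per kb per 1e6 ends at 10 s, 445 at 30 s, 411 at 60 s, 253 at 5 m and 157 at 20 m. Those without had 49.4, 69.6, 91.0, 148 and 141 at these times. In Rap1 libraries, regions with the Rap1 letters had 803, 948, 888, 349.6 and 185 at these times, and those without had 27.2, 41.8, 61.2, 103 and 140.1. In Reb1 libraries, regions with the Reb1 letters had 286, 389.8, 434, 289 and 178, and those without had 32.2, 36.3, 44.0, 101 and 117. Libraries up to 60 s and from 2.5 m on carried different run codes for each TF, so a step between them cannot be told apart from the run.

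With free MNase, regions with and without the letters followed each other at all these times. The free MNase median over all divergent regions was 41.3 at 10 s, 60.7 at 30 s, 59.8 at 60 s, 91.3 at 5 m and 98.5 at 20 m. At 20 m the share of ends in divergent regions was 12.5% with Abf1, 13.6% with Rap1 and 13.8% with Reb1, against 7.84% with free MNase. Divergent over tandem level at 20 m was 1.13 with Abf1, 1.22 with Rap1 and 1.29 with Reb1, against 0.995 with free MNase. The central share of ends was 39.5% at 30 s (replicate 1) and 35.1% at 20 m with Abf1, 43.0% and 37.0% with Rap1, and 40.3% and 42.5% with Reb1. Divergent over gene interior level at 20 m was 2.64 with Abf1, 3.52 with Rap1 and 4.87 with Reb1, against 2.32 with free MNase. With free MNase this ratio was 1.22 at 10 s, 1.01 at 30 s, 1.11 at 60 s and 2.09 at 5 m, so that its divergent regions and gene interiors were close in level only in libraries up to 60 s among those given here. With Reb1, 75.9% of the ends near its letters lay before them at 5 m and 66.0% at 20 m.

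**Figure D5:**
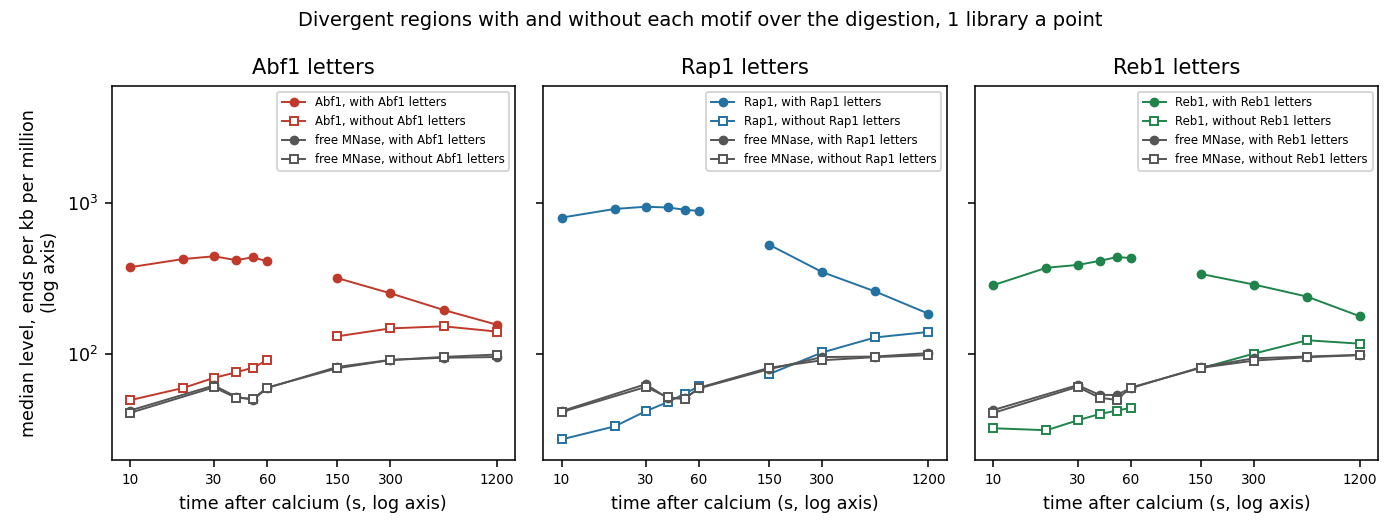
Median level (ends per kb per 1e6 ends, log axis) against time after calcium (s, log axis) for divergent regions with the letters of a TF (filled) and without them (open), in libraries of that TF and of free MNase, 1 library a point and a gap where the run code changes. The free MNase library at 20 s is left out for its depth, and TF lines converge towards 20 m (157 and 141 with Abf1).

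Longer divergent regions were cut more by the TFs. In regions of 150 to 299 bp (n = 363) the median was 55.0 ± 4.40 with Abf1, 22.8 ± 1.44 with Rap1 and 30.6 ± 3.07 with Reb1, and in regions of 1000 to 2000 bp (n = 171) it was 196 ± 2.94, 96.3 ± 7.93 and 126 ± 28.3 (SD over 3 replicates each). Free MNase had 58.9 and 60.0 in the same bins. The Abf1 letters occurred in 12.9% of the shorter and 49.1% of the longer regions, and their part in the level was not tested.

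Rap1 cut nearly every region beside a cytosolic ribosomal protein gene. The gene lists below were set by gene symbol on either side of a region. Of 67 divergent regions beside a cytosolic ribosomal protein gene, Rap1 was called higher than free MNase in 64 and lower in none, with a median log2 difference of 4.09, against -0.50 over all divergent regions. Abf1 was called higher in 48 and lower in none (median 1.68, against 0.93), and Reb1 higher in 16 and lower in 5 (median 0.15, against -0.10). As shares called higher these were 95.5% with Rap1, 71.6% with Abf1 and 23.9% with Reb1. Of all divergent regions they were 20.96%, 48.0% and 32.2%, so that Reb1 lay below its share. The Rap1 letters were in 18 of the 67. Of 36 regions beside a mitochondrial ribosomal protein gene, Abf1 was higher in 19 and lower in 2, Rap1 higher in 5 and lower in 20, and Reb1 higher in 10 and lower in 8. The shares called higher were thus 52.8%, 13.9% and 27.8% with Abf1, Rap1 and Reb1, beside 48.0%, 20.96% and 32.2% of all divergent regions, and those of Abf1 and Reb1 lay near that background.

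Of 20 regions beside proteasome genes, Abf1 was higher in 16 (80.0%), Rap1 in 3 (15.0%) and Reb1 in 13 (65.0%), so that Abf1 and Reb1 exceeded their shares of all divergent regions and Rap1 lay below its share. Their median levels were 302 ± 24.6 with Abf1, 35.4 ± 3.53 with Rap1 and 184 ± 9.31 with Reb1 (SD, n = 3 each), against 65.2 with free MNase. Of 19 regions beside RNA polymerase subunit genes, Abf1 was higher in 12 (63.2%), Rap1 in 3 (15.8%) and Reb1 in 7 (36.8%), and the shares of Rap1 and Reb1 lay near those of all divergent regions. Of 6 regions beside chaperone genes these numbers were 5, 2 and 3 (83.3%, 33.3% and 50.0%), and of 12 beside replication genes 4, 3 and 2 (33.3%, 25% and 16.7%), beside the same 48.0%, 20.96% and 32.2% of all divergent regions.

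The regions with a ribosomal protein gene on both sides were RPS16B-RPL13A, RPL24A-RPL30, RPS22A-RPL39, RPL13B-RPS16A and RPS15-RPP2A. Rap1 averaged 1606 ± 104, 1202 ± 197, 1592 ± 177, 2034 ± 143 and 2198 ± 132 in them (SD, n = 3 each), against 54.8, 55.7, 55.2, 66.6 and 46.2 with free MNase. All 5 were called higher with Rap1, by 4.30 to 5.43 log2 units. RPS15-RPP2A (chrXV:253578-254296) was the highest and was also called higher with Abf1 (264 ± 24.2) and Reb1 (280.0 ± 40.7). RPS22A-RPL39 was called for neither other TF, and the remaining 3 were called higher with Abf1 but not with Reb1.

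The 4 divergent histone gene pairs gave small differences. HHT2-HHF2 (chrXIV:576051-576726) had 217.5, 209 and 217 with Abf1, 239.9, 199.5 and 202 with Rap1 and 86.1, 121 and 136 with Reb1, against 93.5 with free MNase. It was called higher with Abf1 (log2 1.16 ± 0.27 SE, limma adjusted p = 0.000842) and Rap1 (1.15 ± 0.27, adjusted p = 0.000723). The Abf1 call was lost when scaled to the ends outside rDNA, mitochondrial DNA and chromosome ends (0.98) and with the median intergenic region set equal (0.87). Both calls were lost with the run code as a term (0.70 and 0.69) and with free MNase at 30 to 60 s as 1 group (0.95 and 0.93). HTB1-HTA1 (chrIV:914713-915529) was called higher with Abf1 (190.3 ± 25.9, against 66.2), while HHF1-HHT1 (97.7 ± 13.9 with Abf1) and HTA2-HTB2 (109.6 ± 7.22) were not called on this scale.

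The GAL10-GAL1 region (chrII:278353-279020), between genes of galactose use, was among the less cut. It had 24.0, 37.5 and 42.8 with Abf1, 10.3, 11.6 and 8.20 with Rap1 and 31.9, 32.2 and 30.8 with Reb1, against 47.4 with free MNase. All 9 TF libraries lay below the free MNase library, but only Rap1 was called (log2 -1.81 ± 0.30 SE, limma adjusted p = 2.23e-05). Of the genes of the 3 TFs only ABF1 had a divergent region, RAD27-ABF1 (chrXI:225876-226569), which it shares with a DNA replication nuclease gene. It had 2279, 1303 and 1946 with Abf1, 78.8, 49.5 and 38.7 with Rap1 and 823.5, 914 and 989 with Reb1, against 43.9 with free MNase. Abf1 was 5.20 ± 0.33 and Reb1 4.22 ± 0.33 log2 units (SE) above free MNase (limma adjusted p = 8.07e-11 and 8.3e-10).

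A few regions were cut strongly by all 3 TFs. EPL1-BUD27 (chrVI:90346-90985), beside a histone acetyltransferase complex gene, holds the letters of all 3 TFs and had 1456, 1056 and 1443 with Abf1, 1217, 1026 and 940.3 with Rap1 and 2007, 2244 and 2008 with Reb1, against 52.1 with free MNase. Rap1 and Reb1 had their summits 108 and 111 bp from the BUD27 start codon, and Abf1 305 bp from it. These summits of Rap1 and Reb1 fell 18 and 29 bp from their own letters, in the sequence shown above, where both sets of letters stand side by side. FRS2-GAT1 (chrVI:95011-95965), beside a tRNA synthetase gene and a nitrogen response TF gene, had 850.3 ± 63.9, 2631 ± 274 and 2474 ± 755 for Abf1, Rap1 and Reb1. ADP1-PGK1 (chrIII:136874-137745), beside a glycolysis gene, had 885 ± 137, 1424 ± 133 and 715 ± 48.3, and CRC1-RAS1 (chrXV:514279-515243), beside a signalling GTPase gene, had 794 ± 194, 1656 ± 363 and 691 ± 194 (SD, n = 3 each).

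The 4 highest free MNase levels were beside retrotransposon genes. Of 1374 divergent regions 22 have such a gene on either side. YER138C-YER138W-A (chrV:449025-449473) had 302, 520.0 and 496 with Abf1, 184, 122 and 109.8 with Rap1 and 50.9, 68.6 and 56.7 with Reb1, against 948 with free MNase. The 3 others, YDR261C-D-YDR262W, POR1-YNL054W-A and VPS71-YML040W, had 147.5, 134 and 132 with free MNase. Retrotransposon copies are alike in sequence, so that the place of a fragment among them is uncertain.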

How the data were processed

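The deposited files give 1 line for each mapped fragment, with chromosome, start and end, and no score or other value. Starts were read as 1-based from their values, which the sources used here do not state, so positions may be off by 1 base. Per the methods and labels, the authors sequenced small DNA fragments from both ends and mapped them with Novoalign 2.08.03 to sacCer3. They scaled fragment end counts for their tracks and average plots, whereas the deposited fragment files used here hold no scaled values and still hold identical fragments. Here the 2 ends of each fragment were counted per region in all 57 libraries and divided by length and by all ends of the library. Levels at 30 s (3 libraries a TF, 1 of free MNase) were compared with limma 3.58.1 in R 4.3.3 on log2(level + 5), with a trended variance, in regions with at least 10 ends in at least 3 of the libraries. The lone free MNase library was assumed to vary like the TF replicates. P-values were adjusted by the Benjamini-Hochberg method over 4949 regions. Single values were compared by exact permutation over libraries (two-sided, 15 tests in families of 3). Other steps used Python 3.11.15, numpy 2.4.6, pandas 2.3.3 and scipy 1.17.1, and plots matplotlib 3.10.9. The limma step was tested on simulated data. Wilson intervals cover counting error only, and reads without molecular identifiers are not independent molecules.

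Named regions were, for each TF, the 5 with the largest smaller difference to the other TFs among those called over all others with separate replicates, the 4 with the largest lowest TF mean among those called for all 3 TFs, the 4 with the highest free MNase level, the divergent GAL and histone pairs, ribosomal protein gene pairs and the region beside ABF1, and for each TF the 2 sharpest of the 100 with the highest level. The members and lists were chosen with earlier results of these data known. Alternatives covered the pseudocount, filter, scale, identical fragments, variance trend, replicate block, run code, region length, free MNase at 30 to 60 s as 1 group, and each TF replicate left out. The deviations of same-numbered libraries from their group means correlated at 0.197 to 0.487 in all 3 pairs of Abf1 and Rap1. These pairs also share a run code. Pairs of Abf1 and Rap1 libraries with the same code but unlike numbers were at 0.195 and 0.253. Pairs with Reb1 that share a code were at 0.000353 to 0.0856. The parts of number and code were not tested. Pairs of Abf1 and Rap1 libraries with unlike codes were at -0.389 to -0.296, and same-numbered pairs with Reb1 at -0.119 to 0.0884. In comparisons of TF libraries, run codes could be included as a term.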

Additional observations from a re-analysis of the deposited data

Results flagged for a closer look

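Libraries without calcium, which no comparison above uses, held signal above that of free MNase without calcium in 2 fusions. Without calcium, the median level of divergent regions with the Rap1 letters over those without was 0.54 on the log2 scale in the Rap1 library, against 0.05 with free MNase. With the Reb1 letters it was 0.45 in the Reb1 library, against -0.01 with free MNase. The median level of divergent over convergent regions was 1.44 in the Rap1 library and 2.195 in the Reb1 library without calcium, against 1.07 with free MNase. Each is 1 library, and no difference was tested.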

How the results depend on the processing

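The number of regions called lower than free MNase depended most on the settings. For Abf1 it was 39 with a pseudocount of 20, 34 with identical fragments counted once and 60 in regions of 250 to 1000 bp without an RNA gene. For Rap1 it was 268, 141 and 286 under the same settings and 120 with the median intergenic region set equal. For Reb1 it was 141, 54 and 170 under those 3 settings, 83 with the median set equal and 191 when scaled to the ends outside rDNA, mitochondrial DNA and chromosome ends. Other settings raised it from the main 102, 450 and 291 for Abf1, Rap1 and Reb1. It was 147, 551 and 377 with the run code as a term, and 116, 509 and 343 with a pseudocount of 1. Calls higher than free MNase moved by over 1.5 times only for Rap1, to 476 with the median set equal and 448 with identical fragments counted once. With the median set equal, Abf1 was higher than Rap1 in 363 regions and lower in 318, and higher than Reb1 in 346 and lower in 371. A pseudocount of 20 gave 268 higher for Rap1 and 422 for Reb1 against free MNase. The cause of these moves was not tested.

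With the mean over regions, divergent over tandem level was 1.52 with Abf1, 1.63 with Rap1 and 1.70 with Reb1, and in regions of 250 to 1000 bp it was 1.83 for Abf1 and 1.57 for Reb1. The central share was 41.3%, 39.9% and 39.3% for Abf1, Rap1 and Reb1 as the median over regions and 38.8%, 44.3% and 40.0% in regions of 250 to 1000 bp, and 41.5% for Rap1 and 39.3% for Reb1 with identical fragments counted once. The log2 ratio for the own letters was 1.74, 2.79 and 2.37 for Abf1, Rap1 and Reb1 with the mean, 2.14, 3.65 and 2.67 with identical fragments counted once, and 4.59 for Rap1 in regions of 250 to 1000 bp. The log2 of 20 m over 30 s in divergent regions was positive with the median but -0.90, -0.42 and -0.33 for Abf1, Rap1 and Reb1 with the mean over regions. It was 0.020 with Abf1, 1.12 with Rap1, 1.18 with Reb1 and 1.11 with free MNase with identical fragments counted once, 1.45 for Rap1 and 0.84 for free MNase outside rDNA, mitochondrial DNA and chromosome ends, and 0.70 for free MNase with the mean.

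Leaving out each TF replicate in turn gave 650 to 678 higher and 83 to 118 lower for Abf1 against free MNase, 280 to 293 higher and 434 to 466 lower for Rap1 against free MNase, 430 to 472 higher and 274 to 332 lower for Reb1 against free MNase, 720 to 765 higher and 155 to 160 lower for Abf1 against Rap1, 528 to 587 higher and 236 to 247 lower for Abf1 against Reb1, and 217 to 258 higher and 409 to 451 lower for Rap1 against Reb1.
The divergent over tandem level was then 1.56 to 1.64, 1.30 to 1.39, 1.37 to 1.45 for Abf1, Rap1 and Reb1, the central share 39.3% to 39.9%, 43.5% to 44.0%, 40.3% to 40.4%, and the log2 ratio for the own letters 2.42 to 2.58, 4.32 to 4.46, 3.10 to 3.33. With replicate number as a block, the counts were 743 and 159 for Abf1 against Rap1, 555 and 241 for Abf1 against Reb1, and 233 and 425 for Rap1 against Reb1, as without it. Every TF had the same replicate numbers, so the block leaves the differences between TFs as they were. The equal counts therefore cannot show whether pairing matters, also for Abf1 and Rap1, whose same-numbered libraries deviated together (correlations 0.197 to 0.487). No paired analysis was possible against free MNase because it has 1 library at 30 s. Of the named regions' values, 941 of the alternatives kept their side of the threshold, 20 gained a call and 20 lost one, and no called difference changed direction.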

Other observations

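The crosslinked Abf1 immunoprecipitation had 6.73% of its ends in divergent regions, against 5.09% with free MNase at 30 s, and its level near the Abf1 letters was 0.953 times that farther off. For this library crosslinked chromatin was digested with MNase before the immunoprecipitation, so that an end does not mark a cut made beside Abf1 in permeabilised cells, and the values are given side by side without a comparison. The short-linker Abf1 fusion at 30 s had a log2 ratio of 2.51 for the Abf1 letters and the short-linker Reb1 fusion 2.83 for the Reb1 letters. At 5 m these were 0.95 for Abf1 and 1.28 for Reb1, and 1.35 for the N-terminal Reb1 fusion, with 1 library each.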
